A study of Rattus norvegicus with 13 samples.

Results

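Dystroglycan, 3 of its partners and 3 enzymes that attach its sugars were described in the ventricular zone (VZ) of neonatal rats. The 7 genes were taken by name from the deposited table (*Dag1*, *Dmd*, *Utrn*, *Sgcb*, *Pomt1*, *Pomt2* and *Pomgnt1*); each had 1 row there, of 14716 rows in all and 13129 distinct gene names, and all 7 passed the filter on low values. The samples were male Long Evans pups on postnatal day 2 (PN2), 1 per litter. The 7 control pups came from dams given 0 ppm propylthiouracil (PTU, an inhibitor of thyroid hormone synthesis) and were labelled euthyroid. The 6 PTU exposed pups came from dams given 3 ppm in the drinking water, per the labels through pregnancy or lactation, and were labelled hypothyroid. In every pup the posterior VZ, the layer of progenitors along the ventricle, was cut out by laser capture and its total RNA sequenced. The paper reports some degradation of this RNA, and its part in the values below was not tested. The comparison asks which transcripts of this layer differ when the dam is given PTU and the pup is hypothyroid. Because the tissue was sequenced in bulk, fewer cells of a type and less RNA per cell cannot be told apart in any value below.

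*Dag1* encodes dystroglycan, a receptor for the extracellular matrix that is cut into an alpha subunit outside the cell and a beta subunit in the membrane. Beta-dystroglycan binds dystrophin (*Dmd*) or its relative utrophin (*Utrn*), which tie it to actin, and in many tissues the sarcoglycans, of which *Sgcb* encodes beta-sarcoglycan, sit beside it. Alpha-dystroglycan binds laminins, agrin and neurexins only through a long sugar chain. POMT1 and POMT2 work as a heteromeric complex in the endoplasmic reticulum and add the first mannose of that chain. POMGNT2 then extends the mannose that carries the ligand-binding chain, whereas POMGNT1, in the Golgi, makes a separate branch on other mannoses. In the developing brain, dystroglycan holds the endfeet of radial glia to the basement membrane at the pial surface, and inherited loss of these enzymes causes muscular dystrophies with malformations of the brain.

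Reads behind each library, estimated from the smallest step between low values, numbered 22293037 to 43508329 in the controls and 28413878 to 44386609 after PTU exposure. All 9 markers of VZ progenitors were found in every pup. PTU pup 1 stood apart from the other 12 on the first principal component (22.3% of the variance), at 70.8 where the others lay between -28.0 and 29.1; results are given with and without it where they rest on it. Values are normalized counts, that is, read counts divided by a size factor for each pup. They are not divided by transcript length, so no level is compared between genes. Changes are log2 fold changes of (normalized count + 1), PTU exposed against control, from limma fitted over 14606 rows, with p-values adjusted over all of them by the Benjamini-Hochberg procedure.

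Of the 7 genes 0 had an adjusted p of at most 0.05 (limma), as had 0% of the 14606 rows, where the smallest adjusted p was 0.0981. At an unadjusted p under 0.05 there were 2 of the 7, *Dag1* and *Pomt1*, both lower in PTU exposed pups, against 16.3% of all rows in either direction (8.2% lower, 8.11% higher). These 2 genes were also the ones whose groups did not overlap, with all 6 PTU exposed pups under the lowest control; such a separation occurred in 0.596% of all rows (0.26% lower, 0.335% higher). The median log2 fold change over all rows was 0.0038. Of all rows at that unadjusted level 49.7% were higher in PTU exposed pups. When all pups were given the same total, of which the 3 highest rows took from 23.9 to 60.1%, this share was 95.1% and the median moved to 0.20, so that all values below shift upwards: *Dag1* was then at -0.11 (adjusted p = 0.802 in limma), *Pomt1* at -0.42 (0.481), *Pomt2* at -0.0047, *Sgcb* at 0.05, *Utrn* at 0.16, *Dmd* at 0.25 and *Pomgnt1* at 0.27, and 0 of the 7 had an unadjusted p under 0.05. Ratios between genes within a pup keep their value under any scaling up to the pseudocount.

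**Figure D1:**
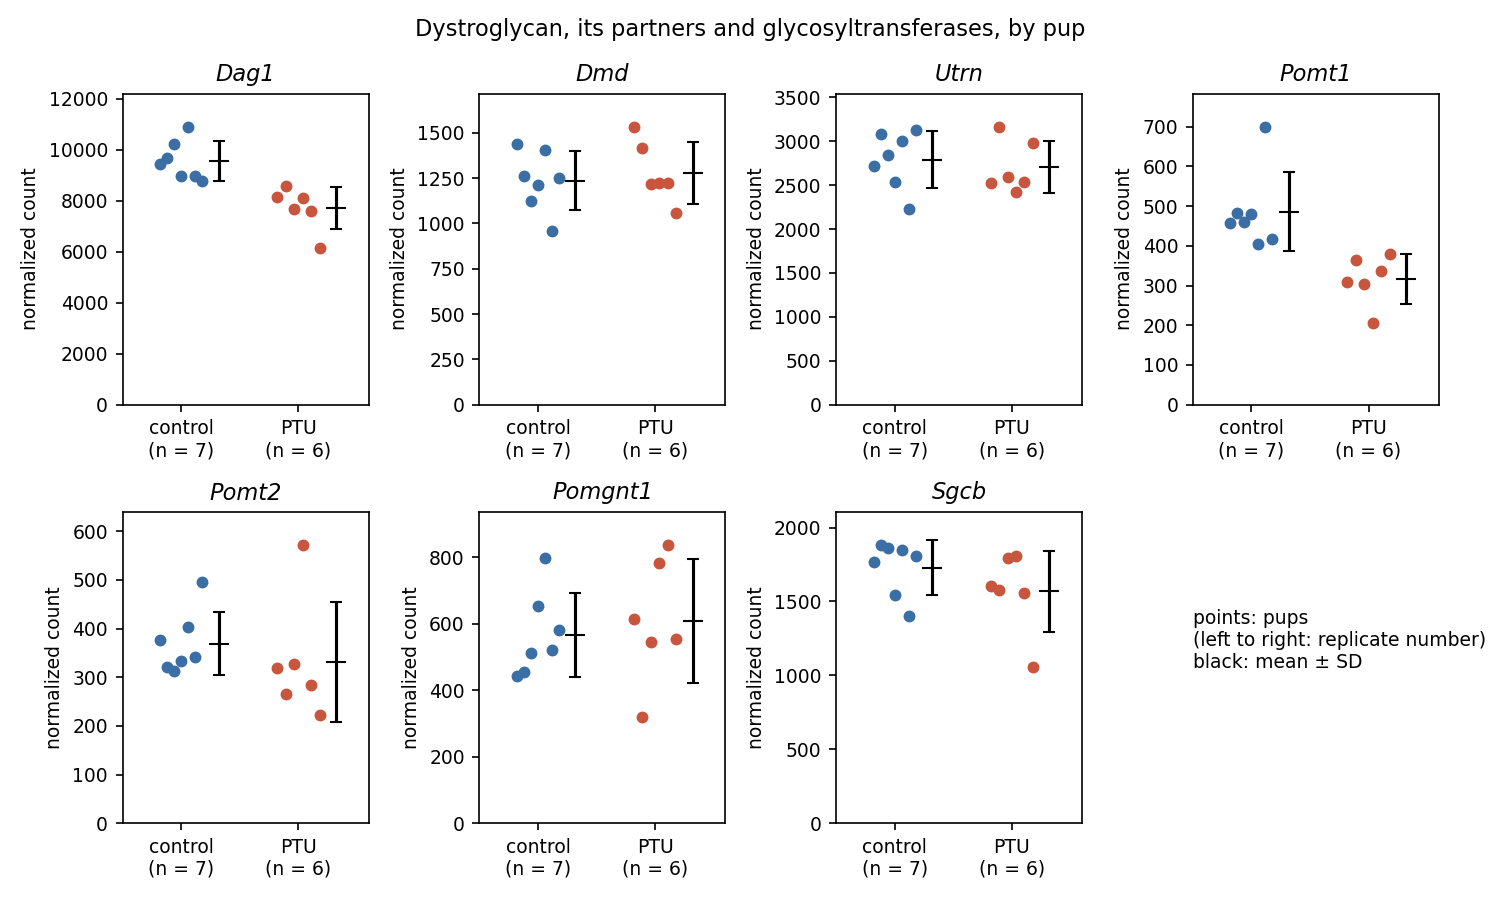
Normalized counts (y axis) of the 7 genes in each pup, with 1 panel per gene and 1 point per pup (7 control in blue, 6 PTU exposed in red; black, mean ± SD). The groups are separated for *Dag1* (lowest control pup 8760, highest PTU exposed pup 8571) and *Pomt1* (405.6 and 379.5), and overlap in the other 5 panels.

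*Dag1* (ENSRNOT00000026327), the receptor itself, ranged in control pups from 8760 to 10890 normalized counts with a median of 9418. In PTU exposed pups it ranged from 6159 to 8571 with a median of 7880. The groups did not overlap, and PTU pup 6 was the lowest of all 13. The means were 9555 ± 771 (SD, n = 7) and 7705 ± 838 (SD, n = 6), and the fitted change was -19.6%. The log2 fold change was -0.31 (SE 0.085, 95% confidence interval -0.49 to -0.14; adjusted p = 0.134 in limma). An exact permutation test over pups (two-sided, unadjusted) gave p = 0.00117, the smallest that 7 against 6 pups allow. Groups without overlap always give this value, so it only restates the separation. Without PTU pup 1 the log2 fold change was -0.33 (adjusted p = 0.161 in limma).

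The partners on the inner side of the membrane did not share this separation. *Dmd* (ENSRNOT00000035692), the dystrophin gene, had 960 to 1440 normalized counts in the controls, with a median of 1251, and 1058 to 1533 after PTU exposure, with a median of 1222. All PTU exposed pups but pup 1, which was above the highest control, lay inside the range of the controls. The log2 fold change was 0.05 (SE 0.11, 95% confidence interval -0.18 to 0.28; adjusted p = 0.852 in limma), and -0.0052 without PTU pup 1. This row carries a single transcript identifier, so the long and the short forms of dystrophin that the brain is known to make could not be examined separately.

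*Utrn* (ENSRNOT00000016273), which binds the same tail of beta-dystroglycan, had 2226 to 3129 normalized counts in the controls, with a median of 2845, and 2419 to 3165 after PTU exposure, with a median of 2568. The pups of both groups were interspersed. Its log2 fold change was -0.04 (SE 0.094, 95% confidence interval -0.24 to 0.15; adjusted p = 0.846 in limma). *Sgcb* (ENSRNOT00000089094) had 1399 to 1880 normalized counts in the controls, with a median of 1805, and 1060 to 1809 after PTU exposure, with a median of 1592. A single pup, PTU pup 6, lay below the lowest control. The log2 fold change of *Sgcb* was -0.15 (SE 0.12, 95% confidence interval -0.40 to 0.09; adjusted p = 0.525 in limma), and -0.045 without PTU pup 6 (adjusted p = 0.867). Of these 3 intervals, that of *Sgcb* includes a decrease as large as the -0.31 of *Dag1*, and those of *Dmd* and *Utrn* do not.

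Among the enzymes, *Pomt1* (ENSRNOT00000015214) had the larger difference. Control pups ranged from 405.6 to 699.6 normalized counts with a median of 461.1. PTU exposed pups ranged from 205.6 to 379.5 with a median of 322.8. No pup of one group reached the range of the other, while 1 control, pup 6, was far above the rest, which ended at 481.7. The means were 486 ± 98.7 (SD, n = 7) and 317 ± 61.9 (SD, n = 6), and the fitted change was -35.1%. The log2 fold change was -0.62 (SE 0.16, 95% confidence interval -0.95 to -0.29, adjusted p = 0.129 in limma). The exact permutation test (two-sided, unadjusted) gave the same smallest p of 0.00117, which again only restates the separation. It was -0.62 without PTU pup 1 (adjusted p = 0.161 in limma) and -0.53 without control pup 6 (adjusted p = 0.119). An estimated 212 to 712 reads stood behind each value, for which counting error alone is at most 6.87%, below the spread between pups of 20.3% in controls and 19.6% in PTU exposed pups (coefficients of variation).

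*Pomt2* (ENSRNOT00000016242), the partner of *Pomt1*, had 313.3 to 495.1 normalized counts in the controls, with a median of 342, and 221.6 to 571.1 after PTU exposure, with a median of 301.8. Of the PTU exposed pups, 3 lay below the lowest control, while PTU pup 4 held the highest value of all 13. Its log2 fold change was -0.21 (SE 0.19, 95% confidence interval -0.60 to 0.18; adjusted p = 0.601 in limma), and it depended on single pups: -0.38 without PTU pup 4 (adjusted p = 0.214, unadjusted p = 0.0227, which makes 3 members at that level) and -0.10 without PTU pup 6 (adjusted p = 0.842). The ratio of *Pomt1* to *Pomt2* within a pup was 0.842 to 2.05 in the controls, with a median of 1.45, and 0.36 to 1.71 after PTU exposure, with a median of 1.08. The lowest ratio was that of PTU pup 4 and the highest that of control pup 6. Per the RefSeq annotation the first bases of *Pomt2* overlap *Gstz1*, on the opposite strand, and the last bases of *Pomt1* meet *Uck1*. The library kit keeps the strand, but whether the counting used it is not stated.

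*Pomgnt1* (ENSRNOT00000108219), whose product adds N-acetylglucosamine in that separate branch, had 442.2 to 798.1 normalized counts in the controls, with a median of 520.8, and 319.4 to 835.5 after PTU exposure, with a median of 583.8. Both the lowest and the highest pup were PTU exposed. The log2 fold change was 0.07 (SE 0.20, 95% confidence interval -0.34 to 0.48; adjusted p = 0.893 in limma). This interval is the widest of the 7 and includes changes of the size of that of *Dag1* in both directions.

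Of the 7 genes, 6 matched a RefSeq promoter window (GRCr8, not the build of the deposited files, mRatBN7.2). The 250 bases before the start are shown for *Pomt1* and *Pomt2*, since the products of these genes form 1 enzyme and their transcripts differed in how they were spread over the pups. Both lines run 5′ to 3′ along the gene's strand, with every CpG in capitals. The *Pomt1* window lies on chr3:35918230-35918479 (plus strand) and the *Pomt2* window on chr6:112525800-112526049 (minus strand).
Pomt1: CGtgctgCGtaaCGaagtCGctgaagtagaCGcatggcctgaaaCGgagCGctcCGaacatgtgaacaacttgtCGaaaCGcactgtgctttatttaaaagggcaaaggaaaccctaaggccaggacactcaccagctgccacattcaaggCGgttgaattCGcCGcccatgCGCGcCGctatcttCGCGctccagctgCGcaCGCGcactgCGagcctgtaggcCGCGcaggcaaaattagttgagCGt
Pomt2: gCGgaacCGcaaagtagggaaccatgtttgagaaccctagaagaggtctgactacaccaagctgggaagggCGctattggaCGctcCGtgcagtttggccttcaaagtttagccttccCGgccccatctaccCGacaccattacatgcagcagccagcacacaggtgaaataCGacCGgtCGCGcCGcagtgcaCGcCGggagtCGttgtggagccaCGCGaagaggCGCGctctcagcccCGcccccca
The *Pomt1* window holds 25 CpG and that of *Pomt2* 20, against a median of 5 over 33469 windows, of which 9.74% hold at least 25 and 16.7% at least 20. The letters AGGTCA, the consensus of a thyroid hormone receptor half-site, were searched on both strands and are in neither window, while 14.1% of all windows hold them. This says only that the letters are not in these 250 bases.

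Whether the change of *Dag1* differed from that of each other gene was tested within pups, on the difference of their log2 values, for 6 comparisons. *Dag1* was singled out with its own change already known. Against *Dmd*, the log2 ratio was 2.96 ± 0.19 (SD) in the 7 controls and 2.59 ± 0.11 (SD) in the 6 PTU exposed pups, a difference of -0.36 (SE 0.087; lower than the control mean in 6 of 6; exact permutation test, two-sided, adjusted over the 6 p = 0.014). Without PTU pup 1 it was -0.33 (exact permutation test, adjusted p = 0.0303). With *Dmd* itself at 0.05, this difference is largely the change of *Dag1* already given, and the adjustment over 6 does not cover the choice of *Dag1*. Against *Utrn* the difference was -0.27 (SE 0.12; 6 of 6 pups; exact permutation test, adjusted p = 0.101). Against *Pomgnt1* it was -0.38 (SE 0.24; 5 of 6 pups; exact permutation test, adjusted p = 0.203), against *Sgcb* -0.16 (SE 0.084; exact permutation test, adjusted p = 0.17), and against *Pomt2* -0.11 (SE 0.19; exact permutation test, adjusted p = 0.564). Against *Pomt1* it had the other sign, 0.31 (SE 0.20; exact permutation test, adjusted p = 0.208). Apart from that with *Dmd*, no comparison passed the threshold.

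Markers of cell types, chosen with earlier results of these data known, moved with the groups. The summed level of the 9 markers of the choroid plexus, the secretory epithelium that hangs in the ventricle and was not among the cells the study set out to capture, was 50590 to 142700 normalized counts in the controls, with a median of 115300, and 23570 to 101800 after PTU exposure, with a median of 57030. All 9 were lower in PTU exposed pups, 6 of them at an unadjusted p under 0.05 in limma (median log2 fold change -0.76). Of all rows 16.3% reached that level in either direction (2383 rows, and 2091 without PTU pup 1). The 9 VZ progenitor markers were also all lower, 5 at that level (median -0.29; sums from 74730 to 104100 in control and from 61910 to 82330 in PTU exposed pups), and the 8 neuron markers all higher, 5 at that level (median 0.39; sums from 39620 to 61300 and from 56370 to 84910). PTU pup 1 had the highest neuron sum, and the neuron difference rests in part on it: without that pup the highest PTU exposed sum was 71810, 7 of 8 markers were higher, 3 of them at that level, and the median was 0.28, while the difference in neuron score (mean log2 level of the 8 markers) was 0.25 in place of 0.46. The median was -0.82 for the choroid plexus and -0.30 for the VZ progenitor markers without it. Of these 26 genes 0 passed the adjusted threshold. With the same total for every pup all 9 choroid plexus markers were still lower and all 8 neuron markers higher, and 8 of the 9 VZ progenitor markers lower; with TMM factors 7 of the 8 neuron markers were higher.

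The members followed the choroid plexus markers in different directions. Over the 13 pups, with each group centred on its own mean, the correlation with the choroid plexus score (the mean log2 level of its 9 markers) was -0.91 for *Pomt1*, 0.85 for *Sgcb*, 0.72 for *Pomt2*, 0.59 for *Dag1*, 0.52 for *Dmd*, 0.43 for *Pomgnt1* and 0.02 for *Utrn*. These are descriptions, and the points of a pup share 1 library. Among PTU exposed pups, pup 4 had the highest choroid plexus score (11.46), the lowest *Pomt1* and the highest *Pomt2* and *Sgcb*. Pup 6 had the lowest score (9.3), the highest *Pomt1*, and the lowest *Pomt2*, *Sgcb* and *Dag1*. Among controls, pup 6 had the lowest score (10.1), the highest *Pomt1* and the lowest *Sgcb*. Thus *Pomt1* was highest within each group where choroid plexus markers were lowest, although PTU exposed pups had both less *Pomt1* and lower choroid plexus scores than controls.

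**Figure D2:**
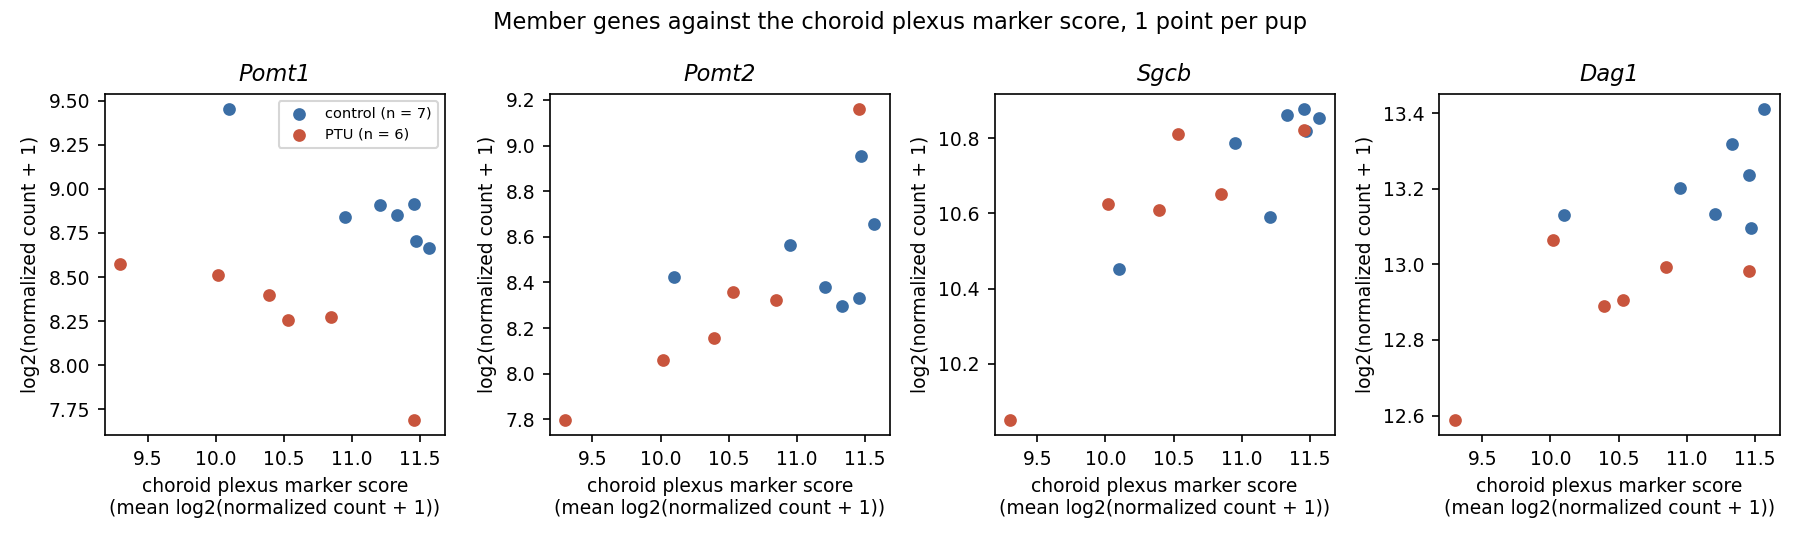
log2(normalized count + 1) of 4 genes (y axis) against the choroid plexus marker score (x axis, mean log2(normalized count + 1) of 9 markers), with 1 point per pup (7 control in blue, 6 PTU exposed in red). *Pomt1* slopes down within both groups and the PTU exposed pups lie below the controls. In the controls this slope leans on pup 6 (score 10.1, 699.6 normalized counts), as the others lie at scores of 10.95 to 11.57 and counts of 405.6 to 481.7. *Pomt2*, *Sgcb* and *Dag1* rise with the score. The within-group correlations are -0.91, 0.72, 0.85 and 0.59 in the order of the panels.

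With the choroid plexus score as a covariate, a fit chosen after seeing the data, the log2 fold change of *Pomt1* was -0.93 (SE 0.13, adjusted p = 0.0115 in limma), 1 of 4 rows past the threshold among the 14606. That of *Dag1* was -0.22 (adjusted p = 0.304), and those of *Sgcb* and *Pomt2* turned to 0.07 and 0.10. This fit was not repeated without control pup 6, which lay far from the other controls in *Pomt1* and in the score. With the VZ progenitor score as a covariate *Dag1* was at -0.12 (adjusted p = 0.999 in limma; unadjusted p = 0.315) and *Pomt1* at -0.79 (adjusted p = 0.999; unadjusted p = 0.00377). The within-group correlation of *Dag1* with that score was 0.67, the highest among the 7 genes, and that of *Pomt1* was -0.28. With the neuron score they were at -0.27 and -0.66 (adjusted p = 0.419 and 0.393). With each of these scores the difference in *Dag1* was smaller than the -0.31 without a score. That in *Pomt1* was larger than -0.62 with each, though only slightly with the neuron score. All rows at an unadjusted p under 0.05 in limma fell from 2383 to 623 with the VZ progenitor score. Whether the smaller difference is particular to *Dag1* was not tested.

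**Figure D3:**
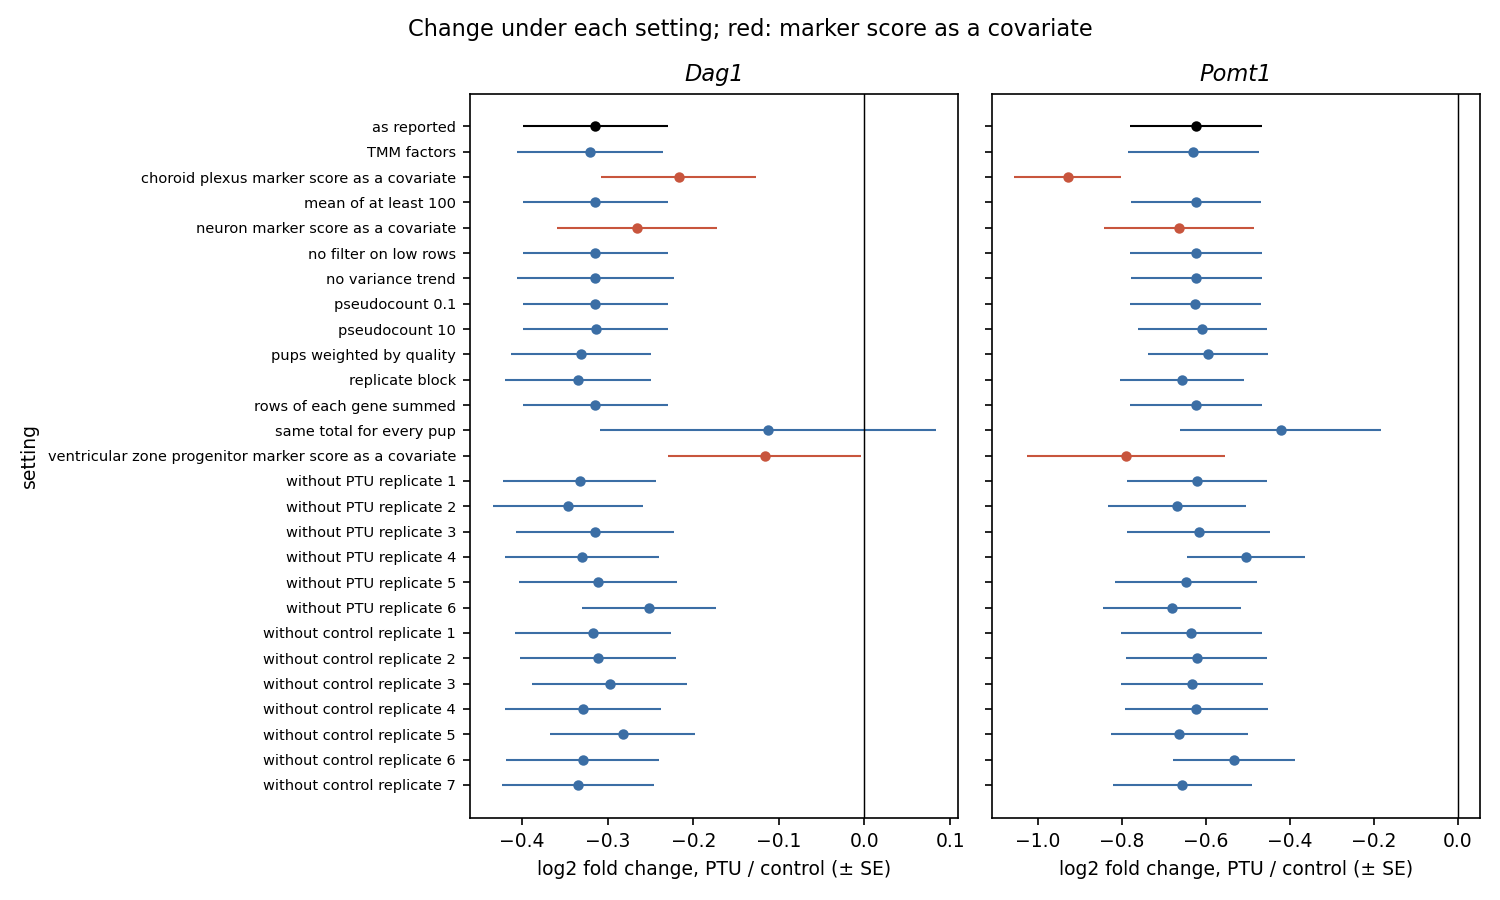
Log2 fold change (x axis, PTU exposed against control, ± SE) of *Dag1* and *Pomt1* under each setting (y axis), with the reported fit in black, other settings in blue and marker scores as covariates in red. All points lie below 0; *Dag1* is nearest to it with the same total for every pup (-0.11) and with the VZ progenitor score (-0.12).

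The other marker lists had smaller shifts or fewer genes, and their directions hold for the deposited scaling: with the same total, 1 of the 3 meningeal fibroblast and 2 of the 4 ependymal markers were lower. Their counts at an unadjusted p under 0.05 stand beside 16.3% of all rows (8.2% lower, 8.11% higher). Of the endothelial markers 6 of 8 were found (1 lower, 5 higher, 0 at an unadjusted p under 0.05, median log2 fold change 0.17; sums from 1782 to 2612 normalized counts in control and from 1822 to 2756 in PTU exposed pups), and all 6 mural markers (3 lower, 3 higher, 1 each at that level, median -0.01, and 2 lower and 4 higher, with 0 and 1 at that level and a median of 0.07, without PTU pup 1; 3678 to 4587 and 3516 to 4502). Meningeal fibroblast markers, 3 of 5 found, were lower in 3, 0 at that level (median -0.04, and -0.36 without PTU pup 1; 937.4 to 4606 and 739.6 to 5228), and their score had a within-group correlation of -0.76 with *Pomt1* and 0.72 with *Sgcb*. Of the ependymal markers 4 of 5 were found, and 3 were lower (median -0.25; 1234 to 2802 and 1014 to 2200), 2 of them at an unadjusted p under 0.05; without PTU pup 1, 2 were lower and 2 higher, 1 at that level, with a median of -0.14. One of these, *Dynlrb2*, a dynein light chain named after its value was seen, had a log2 fold change of -1.04 (SE 0.23, adjusted p = 0.122 in limma). The fifth, *Foxj1*, a regulator of cilia genes, did not match a row by name and was not analysed here. All 6 oligodendrocyte lineage markers were higher, 1 at that level and 2 without PTU pup 1 (median 0.24; 4316 to 8130 and 5817 to 9191) and 4 of 6 microglia markers, with 1 lower at that level (median 0.04, and 0.11 with 0 at that level without PTU pup 1; 1173 to 1874 and 1176 to 1659). Skeletal muscle, the tissue for which this complex is best known, was represented by 2 of 6 markers at low levels (1 lower, 1 higher, 0 at that level, median 0.47; 51.56 to 103.1 and 65.26 to 105.8). No marker found was at 0 in any pup, and the part of these cell types in the results above was not tested beyond the covariates given.

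Among themselves, the members moved together only in part. After centring within groups (13 pups, description only), *Dag1* had correlations of 0.76 with *Sgcb* and 0.60 with *Dmd*, and *Dmd* of 0.56 with *Sgcb*. *Dag1* had 0.08 with *Utrn*, -0.03 with *Pomgnt1* and -0.40 with *Pomt1*. *Pomt1* and *Pomt2*, the subunits of one transferase, had -0.80, and *Pomt1* and *Sgcb* -0.70. The 2 genes without overlap between groups thus did not vary together from pup to pup inside a group, and their correlation without centring was 0.42.

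The dystrophin complex was taken as 18 genes (*Dag1* not among them), of which 14 were found. Of the 14, 9 had a log2 fold change below 0 and 5 above, none passed the adjusted threshold (smallest adjusted p = 0.236 in limma), and 2 lower and 1 higher had an unadjusted p under 0.05, where 16.3% of all rows had one (8.2% lower, 8.11% higher). The median was -0.09, beside 0.0038 over all rows, and 0.11 beside 0.20 with the same total for every pup, where 3 were lower and 11 higher. The syntrophins are adaptors that bind dystrophin and recruit channels and signalling proteins. *Sntb2* (beta-2) had 157 ± 38.3 normalized counts (SD) in the 7 controls and 112 ± 37.6 (SD) in the 6 PTU exposed pups, and a log2 fold change of -0.50 (SE 0.22, adjusted p = 0.283 in limma). *Sntg1* (gamma-1), a neuronal form, was higher, at 130 ± 25.8 and 186 ± 48.8, a log2 fold change of 0.51 (SE 0.20, adjusted p = 0.236). The groups overlapped in all 14.

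The enzymes of alpha-dystroglycan glycosylation were a list of 23 names, 4 of them older symbols of genes listed under a newer one, and 18 were tested. Of these 8 were lower and 10 higher, with a median log2 fold change of 0.02 (6 lower and 12 higher, median 0.22, with the same total). *Pomt1* was the 1 of 18 with an unadjusted p under 0.05 in limma, beside 16.3% of all rows, and the one whose groups did not overlap. The rest, among them the enzymes that extend and end the chain, lay between -0.57 and 0.32. *Gmppb*, which makes the activated mannose from which the donor sugar is built, was at 2906 ± 224 (SD, n = 7) and 3005 ± 459 (SD, n = 6) normalized counts (log2 fold change 0.04, SE 0.093, adjusted p = 0.866). In the RefSeq annotation *Gmppb* overlaps other genes, so its value is uncertain.

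Of the ligands, 13 of 14 names were tested, with 6 lower, 7 higher and a median log2 fold change of 0.09 (2 lower and 11 higher, median 0.29, with the same total). *Lama5*, the laminin alpha-5 chain of basement membranes, had 1844 ± 483 normalized counts (SD) in the 7 controls and 1331 ± 383 (SD) in the 6 PTU exposed pups, and a log2 fold change of -0.48 (SE 0.19, adjusted p = 0.233 in limma). *Nrxn3*, a neurexin of neuronal presynaptic membranes, had 2912 ± 646 and 3707 ± 523, a log2 fold change of 0.37 (SE 0.13, adjusted p = 0.205). These 2 of 13 were the ones at an unadjusted p under 0.05, beside 16.3% of all rows, and in both the groups overlapped. *Agrn*, the proteoglycan agrin, was at 9351 ± 1063 and 9122 ± 890 normalized counts (log2 fold change -0.03, SE 0.089, adjusted p = 0.881).

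**Figure D4:**
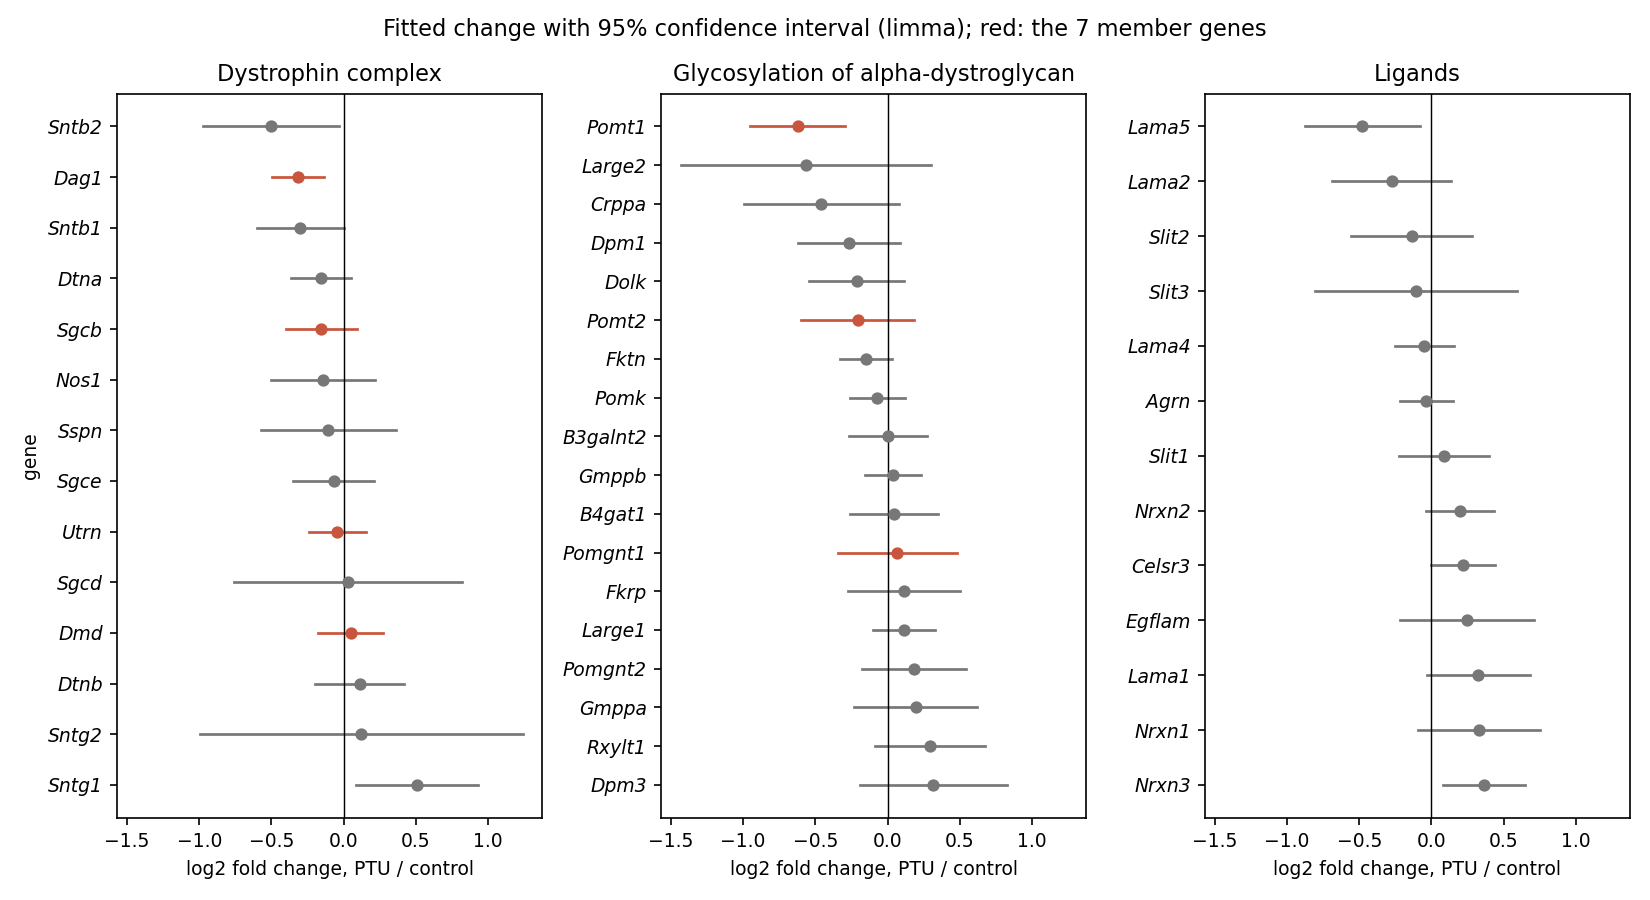
Log2 fold change (x axis, PTU exposed against control, 7 control and 6 PTU exposed pups) with its 95% confidence interval for the genes tested of the 3 lists (y axis, 1 gene left out), *Dag1* added to the first and the 7 member genes in red. The intervals of *Dag1* (-0.49 to -0.14) and *Pomt1* (-0.95 to -0.29) lie below 0 and those of the other 5 members include 0.

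The rows most like *Dag1* were chosen by the Pearson correlation of their log2 values over the 13 pups after centring within groups, among 13164 named rows. They were *Adgra1* (an adhesion G protein-coupled receptor; 0.91), *Fat1* (a giant atypical cadherin; 0.90), *Ltbp1* (a matrix protein that binds latent TGF-beta; 0.90), *Col4a6* (a chain of collagen IV; 0.90) and *Ccdc80* (a secreted matrix protein; 0.89). Without centring the 5 correlations lay between 0.94 and 0.95. Their log2 fold changes were -0.49, -0.33, -0.71, -0.53 and -0.67 in that order, with adjusted p-values from 0.136 to 0.165 in limma.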

How the data were processed

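Total RNA of the laser captured posterior VZ was sequenced from 7 control and 6 PTU exposed pups. Per the labels and the study's methods, the authors used Trimmomatic to trim the reads and STAR 2.7.8a to map them to mRatBN7.2. Partek's E/M counter then shared out reads with more than 1 matching transcript, and the resulting counts were scaled by a median ratio factor for each pup. What was deposited is therefore a scaled signal, at or above 0, called normalized counts here. Of a pup's values between 20 and 150, from 88.2 to 89.7% lay within 0.02 steps of a whole multiple of 1 step; as the rest did not, reads were not recovered, no count model was used and depths are estimates. The authors' DESeq2 comparison (p-values, FDR and fold changes), deposited in the same table, was not used. Rows carry Ensembl identifiers, although RefSeq is the annotation stated; names are those of the table.

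Members are the 7 genes by name. The members, the 3 gene lists, the markers and the tests were chosen with earlier results of these data known. The 14606 rows whose mean reached 10 were fitted as log2(normalized count + 1) with limma 3.58.1 in R 4.3.3 (empirical Bayes with a variance trend, no covariate, Benjamini-Hochberg adjustment over all rows, threshold 0.05), all 13 pups in 1 fit. Single values were compared with an exact permutation test over pups (scipy 1.17.1). Beside the members, the text names each list gene with an unadjusted p under 0.05 or groups without overlap, the highest mean count of each list (which depends on transcript length), and the 5 rows most like *Dag1*. Genes of the dystrophin complex that the rule names but the text does not are not reported here. The limma step was tested on simulated data with known changes. It called 15 of 50 rows at a log2 change of 0.5, 38 of 50 at 1, 48 of 50 at 2 and 50 of 50 at 4. Of 14406 rows without a change it called 11. Changes smaller than 0.5, such as that of *Dag1*, were not simulated. Alternatives were pseudocounts of 0.1 and 10, no filter and a mean of at least 100, TMM factors (the published formula written out), the same total for every pup, summed rows, quality weights, an untrended prior, a block for the replicate number, each pup left out, and 3 marker score covariates and the marker lists without PTU pup 1, both added after seeing the data. Promoter windows are from RefSeq. Figures were drawn with matplotlib 3.10.9.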

Additional observations from a re-analysis of the deposited data

Results flagged for a closer look

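In 4 of 28 groups examined (14 genes in control and in PTU exposed pups), 1 pup lay far from the others of its group by Dixon's test, which chance does in about 1 of 20 groups. *Pomt1* was at 699.6 normalized counts in control pup 6, while the other controls lay between 405.6 and 481.7. *Pomt2* was at 571.1 in PTU pup 4, against 221.6 to 326.7 in the other PTU exposed pups. *Sgcb* was at 1060 in PTU pup 6, against 1560 to 1809. *Sntb2* was at 184.2 in PTU pup 4, against 83.25 to 115.8. These 3 pups were also those with the lowest control (10.1), the highest PTU exposed (11.46) and the lowest PTU exposed (9.3) choroid plexus score, although the study did not set out to capture that epithelium; the part of choroid plexus in these values was not tested.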

How the results depend on the processing

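Under the other settings with all pups and no marker score, *Dag1* lay between -0.33 and -0.11 on the log2 scale (adjusted p from 0.0678 to 0.802 in limma) and *Pomt1* between -0.66 and -0.42 (0.0601 to 0.481). Both were weakest with the same total. With 1 pup left out, *Dag1* lay between -0.35 (without PTU pup 2) and -0.25 (without PTU pup 6) and *Pomt1* between -0.68 (without PTU pup 6) and -0.50 (without PTU pup 4), and no member passed the threshold. The difference of *Dag1* from *Dmd* lay between -0.40 and -0.32 (adjusted p from 0.013 to 0.0303, exact permutation tests).

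Called rows numbered 40 with quality weights, 18 with the replicate block, 4 with the choroid plexus score, and from 0 to 179 with 1 pup left out (179 without PTU pup 2, 7 without control pup 6, 0 without any other). With the choroid plexus score 1 member, *Pomt1*, was called. All rows at an unadjusted p under 0.05 numbered 2383 as reported, 2955 with the replicate block, 2848 with quality weights, 1666 with the same total, 2021, 1404 and 623 with the choroid plexus, neuron and VZ progenitor scores, and from 1791 (without PTU pup 6) to 2997 (without PTU pup 2), for comparison with the lists. The glycosylation list had 3 genes with quality weights, 0 with the same total and from 1 to 3 with 1 pup left out (3 without PTU pup 2; 2 without PTU pup 1, 4 or 5 or control pup 5 or 6). The ligand list had 5 with the replicate block, 1 with the neuron score, 0 with the VZ progenitor score and from 1 to 5 with 1 pup left out (5 without PTU pup 2; 1 without PTU pup 6 or control pup 5). The dystrophin complex had 1 with the same total or the VZ progenitor score, 0 with the choroid plexus score and from 0 to 5 with 1 pup left out (5 without control pup 1; 0 without PTU pup 6; 1 without PTU pup 2 or control pup 3, 4, 5 or 7). *Dag1* differed from 1 to 2 members with 1 pup left out, 2 of them without PTU pup 2 (*Pomgnt1*, -0.59) and without control pup 7 (*Utrn*, -0.32).

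These values of single genes changed sign, none of them past a threshold: *Dmd* without PTU pup 1 (-0.0052) and without control pup 6 (-0.0096), *Pomgnt1* without PTU pup 4 (-0.018) or 5 (-0.0366, of a range from there to 0.24 with 1 pup left out) and with the VZ progenitor score (-0.013), *Sgcb* with the same total (0.047), the choroid plexus score (0.071) and the VZ progenitor score (0.13), *Utrn* with the same total (0.16) and the VZ progenitor score (0.023), *Pomt2* with the choroid plexus score (0.10) and the VZ progenitor score (0.0094), and *Dag1* minus *Pomt2* without PTU pup 4 (0.046, of a range from -0.20 to there). Those with the same total follow from a scaling that raised the median of all rows by a like amount; for the others the cause was not tested. Of the list medians, that of the ligands was at -0.082 with the VZ progenitor and -0.0066 with the neuron score (0.016 to 0.17 with 1 pup left out), that of the dystrophin complex at 0.015, -0.0184 and -0.0027 with the VZ progenitor, choroid plexus and neuron scores (-0.13 to -0.031 with 1 pup left out), and that of glycosylation at -0.0262 and -0.0285 with the VZ progenitor and neuron scores and from -0.034 to 0.044 with 1 pup left out.

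The numbers were not taken to pair pups, which came from different litters: same-numbered pups correlated at -0.07 to 0.198, 4 of 6 pairs over 0.1, and 1 of 6 PTU exposed pups correlated best with its own number. With the replicate block, in which control pup 7 adds nothing, *Dag1* was at -0.33 (adjusted p = 0.0688 in limma) and *Pomt1* at -0.66 (adjusted p = 0.0601). Counting error was largest for *Pomt1*, *Pomt2* and *Pomgnt1*, at most 6.87, 6.4 and 5.5%. It was below their spread between pups, with coefficients of variation from 17.3 to 37.2%.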

Other observations

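The ratio of *Utrn* to *Dmd* within a pup, over transcripts of unlike length and hence for comparison between pups only, was 1.89 to 2.53 in the controls, with a median of 2.32, and 1.64 to 2.82 after PTU exposure, with a median of 2.1, so that both the lowest (PTU pup 1) and the highest (PTU pup 6) were PTU exposed. The ratio of *Pomt1* to *Pomgnt1* was 0.508 to 1.34 in the controls, with a median of 0.899, and 0.262 to 1.14 after PTU exposure, with a median of 0.53, and PTU pup 4, with the lowest *Pomt1*, again had the lowest value. Both ratios were chosen after the values were seen and were not tested.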
